A study of Mus musculus with 6 samples.

Results

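Genes that make, remove, carry and read retinoic acid were compared between mouse embryos that lack Fz7 and embryos that lack both Fz2 and Fz7. The 9 genes, chosen by name, were Rdh10, Dhrs3, Aldh1a2, Cyp26a1, Crabp1, Crabp2, Rara, Rarb and Rarg. All 9 were measured, among 18193 genes on the array, and where a gene had several probe sets the brightest on average over the arrays stood for it. The single knockout embryos were Fz2+/+; Fz7-/- and the double knockout embryos were Fz2-/-; Fz7-/-, with 3 arrays of each, called replicates 1 to 3. Loss of Fz7 is therefore common to all 6 arrays, and embryos with intact Fz7 were not analysed here. Fz2 and Fz7, written Fzd2 and Fzd7 as gene symbols, encode Frizzled receptors for Wnt ligands. RNA came from whole embryos at embryonic day 8.5, of mixed gender, on a C57BL6/129 mixed background. Whether an RNA sample held 1 embryo or several, and whether litters were separate, is not in the labels. The p-values thus measure only how far these samples spread, which may be technical. The question was what loss of Fz2 adds to loss of Fz7.

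Retinoic acid is a small signalling molecule made from vitamin A. Retinol is first oxidised to retinaldehyde and then to retinoic acid, which enters nuclei, binds receptors paired with retinoid X receptors, and changes transcription at direct repeats of a short DNA motif. At this stage of mouse development the somites and lateral mesoderm of the trunk are a main source, and enzymes that break retinoic acid down protect the tail bud and parts of the head, so that hindbrain, trunk and tail lie at different distances from the signal.

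No retinoic acid gene passed the test for a difference between the groups. Values are log2 expression, so that a difference of 1 is a factor of 2, and all differences are double knockout minus single knockout. By limma with Benjamini-Hochberg adjustment over all 18193 genes, 0 of the 9 genes passed an adjusted p of 0.05, against 0.0055% of all genes tested, which is 1 gene, Fzd2. At an unadjusted p under 0.05 there was 1 of the 9 genes, Crabp2, against 4.96% of all genes. It lay on the lower side, as did 3.0% of all genes at that p. Crabp2 was also the 1 gene of the 9 whose groups did not overlap, against 11.4% of all genes, or 6.6% with the double knockout lower. The 9 genes were lower in 6 cases and higher in 3, with a median difference of -0.06, beside -0.01 for all genes, of which 53.8% were lower. With all arrays the widest differences were those of Crabp2 (-0.55) and Crabp1 (-0.50), and the remaining 7 lay between -0.08 and 0.20.

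Facts of the arrays bear on every value. Fzd2 read 9.95 ± 0.08 in the single knockout and 7.54 ± 0.21 in the double knockout (SD, n = 3), a difference of -2.42 (limma adjusted p = 0.00567), so the groups differ in Fzd2 as labelled. Double knockout replicate 1 stood apart, with correlations across genes of 0.986 to 0.990 to the other 5 arrays, which had 0.997 to 0.998 among themselves. In it 479 genes, or 2.63%, were more than 1 log2 unit away from the other arrays' mean, among them 1 of the 9 genes, Crabp1, against 18 to 37 genes in any other array. More than 0.5 log2 units away were 3 of the 9 genes, Crabp1, Crabp2 and Aldh1a2, against 8.2% of all genes. The differences of the 9 genes are therefore given with and without double knockout replicate 1, as are those of many other genes. Without it, 0 of the 9 genes passed the adjusted threshold and 2 had an unadjusted p under 0.05, Crabp2 and Dhrs3, both lower, against 6.67% of all genes, or 3.76% on the lower side. The groups of the same 2 genes did not overlap, against 22.3% of all genes, or 12.3% with the double knockout lower. Then 53.3% of all genes were lower, and 6 of the 9.

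**Figure D1:**
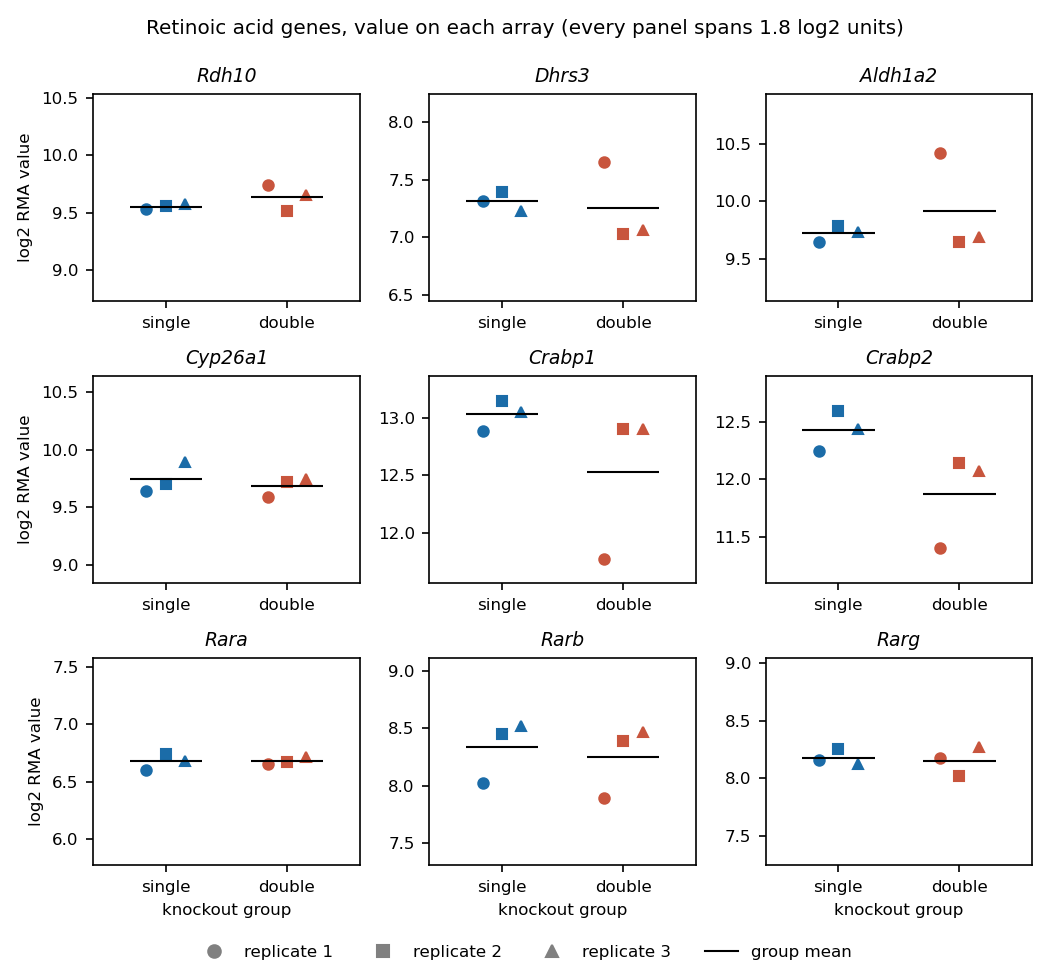
Log2 RMA value (vertical axis) of each of the 9 genes on the 3 single and 3 double knockout arrays (horizontal axis), with the marker shape giving the replicate number and the line the group mean. Every panel spans the same height. Crabp1, Crabp2 and Aldh1a2 have their widest gap at double knockout replicate 1, which reads 11.77, 11.40 and 10.42, and Rara and Cyp26a1 overlap between the groups.

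The enzymes that pass retinol to retinaldehyde and back were Rdh10 and Dhrs3. Rdh10, the retinol dehydrogenase that carries out the first oxidation in the embryo, read 9.53, 9.56 and 9.58 on the single knockout arrays, in the order of their replicate numbers here and below, and 9.74, 9.52 and 9.66 on the double knockout arrays. Double knockout replicate 2 was the lowest of the 6 arrays and replicate 1 the highest, so the groups overlapped. The difference was 0.09 (SE 0.07, 95% interval -0.09 to 0.26, limma adjusted p = 0.877) and 0.03 without double knockout replicate 1. Its dimmer probe set differed by -0.02, on the other side of 0.

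Dhrs3, which reduces retinaldehyde back to retinol and is itself induced by retinoic acid, was split within the double knockout. Its values were 7.32, 7.39 and 7.23 in the single knockout and 7.66, 7.03 and 7.07 in the double knockout. Replicate 1 lay above all single knockout arrays, and replicates 2 and 3 lay below all of them. The difference over all arrays was -0.06 (SE 0.17, 95% interval -0.47 to 0.35, limma adjusted p = 0.957). Without double knockout replicate 1 it was -0.26 (SE 0.07, 95% interval -0.43 to -0.10), or 83.3% of the single knockout level, with an unadjusted limma p of 0.00837 and an adjusted p of 0.701, so that it did not pass. Without double knockout replicate 2 or 3 the difference lay above 0, at 0.05 and 0.03.

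Aldh1a2, the retinaldehyde dehydrogenase that makes nearly all retinoic acid of the early trunk, read 9.65, 9.79 and 9.74 in the single knockout and 10.42, 9.65 and 9.69 in the double knockout. Double knockout replicate 1 was the highest array, 0.72 above the mean of the other 5, which spanned 0.14. The other double knockout arrays lay within or just under the single knockout range. The difference was 0.20 (SE 0.21, 95% interval -0.30 to 0.69, limma adjusted p = 0.891; exact two-sided permutation p = 0.9), and -0.05 (SE 0.07, 95% interval -0.21 to 0.11) without double knockout replicate 1. Its sign therefore rested on that array. Of all genes, 4.51% had a gap of this size or more in double knockout replicate 1.

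Tissue markers moved in the same array. Aldh1a2 is a gene of somites and trunk mesoderm. The 12 somite genes averaged 1.06 log2 units below the single knockout mean in double knockout replicate 1. Their mean level was 6.67 there, against 7.49 to 7.88 in the single knockout. Of the 12, 9 were lowest in that array, among them Meox1, Pax1 and Uncx, while Pax9, Foxc2 and Mesp2 were not. In replicates 2 and 3 that list averaged -0.20 and -0.26. All 12 were lower over 6 arrays and 10 without replicate 1, and 0 passed the adjusted threshold. The lateral plate and heart list averaged -0.41, 0.12 and 0.18 in replicates 1 to 3. Of its 10 genes, 4 were lowest in replicate 1, the heart genes Nkx2-5, Myl7, Myl4 and Tnnt2. Highest there were 2, the lateral mesoderm genes Foxf1 and Hand1, at 9.72 and 7.23. Markers of visceral endoderm, the nutritive layer of the yolk sac, averaged 2.67 higher in replicate 1, and those of trophoblast and maternal decidua 1.63 higher. Of the measured trophoblast and decidua genes, 6 were highest in that array, all of the prolactin and cathepsin families. Des was lowest in it, and Tpbpa, Ascl2 and Psg21 were neither. The trophoblast and decidua list had a mean level of 6.51 there, against 4.76 to 5.09 in the other 5 arrays, and the visceral endoderm list 10.51 against 7.72 to 8.06. These lists were measured for 10 of 12 genes each, and no marker is listed at 0, since the lowest value on any array is 2.64. Their part in the Aldh1a2 value was not tested, and in whole embryos fewer cells of a type and less RNA per cell cannot be told apart.

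Cyp26a1, the cytochrome that hydroxylates retinoic acid and clears it from the tail bud, spanned 0.30 log2 units over the 6 arrays. It read 9.64, 9.70 and 9.89 in the single knockout and 9.59, 9.72 and 9.74 in the double knockout. The groups overlapped, and double knockout replicate 1 was the lowest array by 0.05. The difference was -0.06 (SE 0.09, 95% interval -0.27 to 0.14, limma adjusted p = 0.911; exact two-sided permutation p = 0.6) and -0.01 without double knockout replicate 1. The interval is bounded at about 83.1% and 110.4% of the single knockout level.

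With all 6 arrays the intracellular carriers of retinoic acid had the widest differences of the 9 genes. The widest without double knockout replicate 1 were those of Crabp2 and Dhrs3. Crabp1 is expressed in hindbrain, neural crest and mesenchyme, where it binds retinoic acid in the cytoplasm. It read 12.89, 13.15 and 13.05 in the single knockout and 11.77, 12.90 and 12.91 in the double knockout. Double knockout replicate 1 differed from the mean of the other 5 arrays by -1.20, while replicates 2 and 3 lay just above the lowest single knockout array, so the groups overlapped. The difference was -0.50 (SE 0.31, 95% interval -1.24 to 0.23, limma adjusted p = 0.872; exact two-sided permutation p = 0.3). Without double knockout replicate 1 it was -0.13 (SE 0.09, limma adjusted p = 0.858), or 91.6% of the single knockout level.

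Crabp2, which delivers retinoic acid to the receptors in the nucleus, had the smallest unadjusted p of the 9 genes with all arrays. Its values were 12.25, 12.59 and 12.44 in the single knockout and 11.40, 12.14 and 12.07 in the double knockout. All 3 double knockout arrays lay below all 3 single knockout arrays, replicate 1 furthest. The difference was -0.55 (SE 0.21, 95% interval -1.06 to -0.05), or 68.1% of the single knockout level, with an unadjusted limma p of 0.0347 and an adjusted p of 0.872. An exact two-sided permutation test gave p = 0.1, which 3 arrays against 3 cannot go below. Without double knockout replicate 1 the groups still did not overlap, and the difference was -0.32 (SE 0.11, 95% interval -0.57 to -0.06), or 80.2%, with an unadjusted limma p of 0.0226 and an adjusted p of 0.707.

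**Figure D2:**
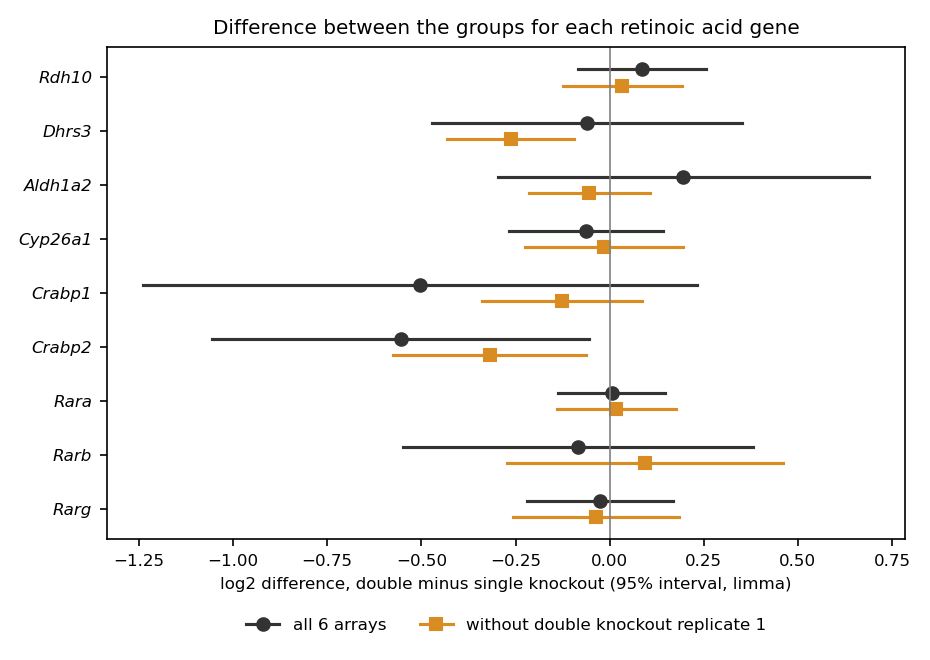
Log2 difference between double and single knockout (horizontal axis) for each gene (vertical axis), with 95% intervals from limma, over all 6 arrays (circles) and without double knockout replicate 1 (squares). The Crabp2 interval lies below 0 in both, from -1.06 to -0.05 and from -0.57 to -0.06, before adjustment for the number of genes, and that of Dhrs3 lies below 0 only without the array.

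Markers of hindbrain and neural crest were mostly lowest in double knockout replicate 1. Of 11 measured among 12, 9 were lowest in that array, among them Sox10 and Erbb3, while Epha4 was highest in it and Hoxb2 was neither. The list averaged -0.93 in it against -0.06 and 0.03 in replicates 2 and 3. Those small averages join differences on both sides. Without replicate 1, 6 genes of the list were higher and 5 lower, from 0.76 for Egr2 to -0.35 for Ednrb. None of them passed the adjusted threshold. The mean level of the list was 7.37 in replicate 1 and 8.23 to 8.35 in the single knockout. Crabp1 moved by -1.25, -0.13 and -0.12 on the same arrays, and Crabp2 by -1.03, -0.28 and -0.35. The part of these tissues in the carrier values was not tested.

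Profiles over the 6 arrays were compared for the genes that ranged over more than 1 log2 unit, which were Crabp1 and Crabp2. Likeness was the root mean square distance between log2 profiles centred on their means, so a smaller value is a closer match. With predicted and cDNA-clone symbols left out, the closest to Crabp1 were Zbtb16 at 0.04 and Pax3 at 0.04. Zbtb16 encodes a zinc finger transcription factor, and Pax3 a transcription factor of dorsal neural tube, neural crest and somite. Pax3 read 8.53, 8.75 and 8.69 in the single knockout and 7.50, 8.58 and 8.60 in the double knockout. The closest to Crabp2, with the same symbols left out, were Gap43, a protein of growing axons, at 0.03, and Asxl3, a chromatin gene, at 0.05. Gap43 read 8.94, 9.27 and 9.09 in the single knockout and 8.10, 8.88 and 8.82 in the double knockout. The carriers lay 0.15 apart, rank 117 from Crabp1 and rank 122 from Crabp2, counted among all 18192 other genes. Since Crabp1 and Crabp2 were lowest in double knockout replicate 1, the choice of closest genes favours genes that are low there too.

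**Figure D3:**
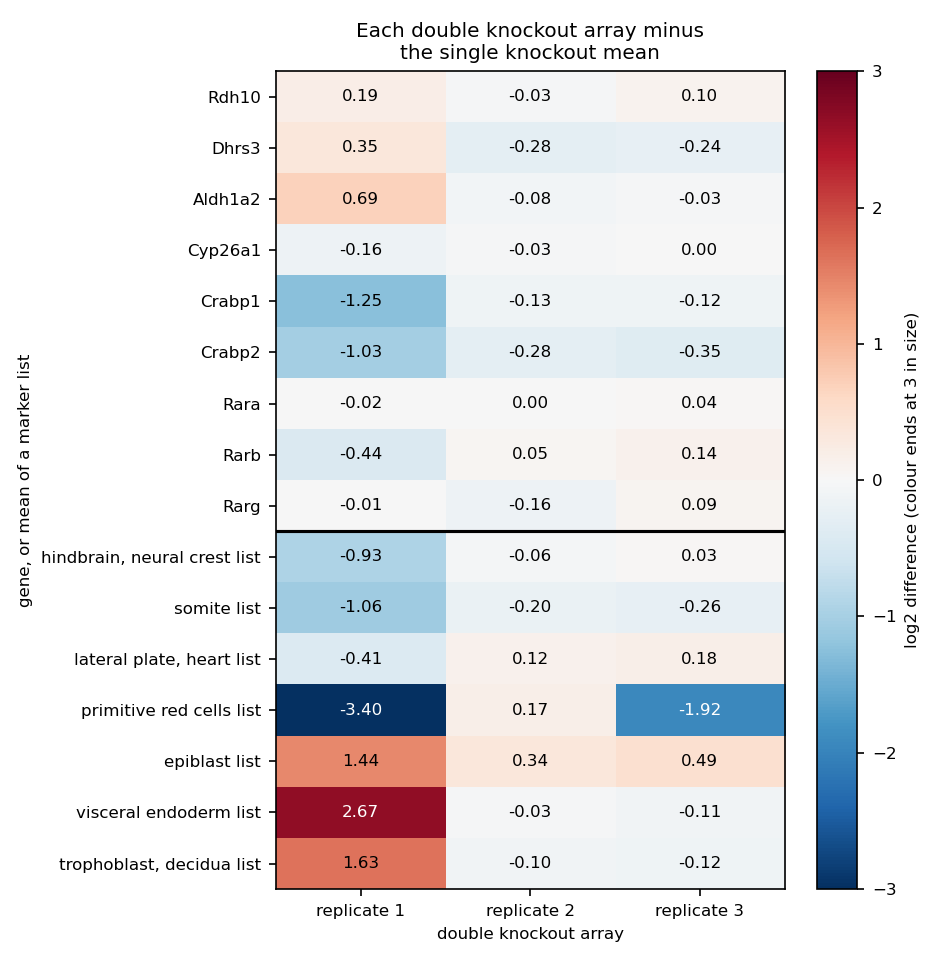
Log2 difference of each double knockout array (columns) from the single knockout mean for the 9 genes (upper rows) and for the mean of each tissue marker list (lower rows), in colour and as printed values. Replicate 1 has -1.25 for Crabp1 and 0.69 for Aldh1a2 beside -1.06 for the somite list, 2.67 for the visceral endoderm list and -3.40 for the primitive red cell list. The primitive red cell list is also low in replicate 3, at -1.92, and has 0.17 in replicate 2.

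The retinoic acid receptors are transcription factors, and their 3 genes had differences close to 0. Rara, present in most tissues, read 6.60, 6.74 and 6.68 in the single knockout and 6.65, 6.67 and 6.72 in the double knockout. All 3 double knockout values lay within the single knockout range. The difference was 0.00 (SE 0.06, 95% interval -0.14 to 0.15, limma adjusted p = 0.990) and 0.02 without double knockout replicate 1.

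Rarg, a receptor of the tail bud and of mesenchyme, read 8.16, 8.26 and 8.13 in the single knockout and 8.17, 8.02 and 8.27 in the double knockout. The double knockout held both the lowest and the highest array. The difference was -0.03 (SE 0.08, 95% interval -0.22 to 0.17, limma adjusted p = 0.961) and -0.04 without double knockout replicate 1. Its sign was turned by a second quantile normalization or median centring (0.00 and 0.01). A dimmer probe set differed by 0.08.

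Rarb is both a receptor and a direct target of retinoic acid. It read 8.03, 8.45 and 8.52 in the single knockout and 7.90, 8.39 and 8.47 in the double knockout. Replicate 1 was the lowest array of each group, and the groups overlapped. The difference was -0.08 (SE 0.19, 95% interval -0.55 to 0.38, limma adjusted p = 0.947; exact two-sided permutation p = 0.6). Without double knockout replicate 1 it was 0.09 (SE 0.15, 95% interval -0.27 to 0.46), on the other side of 0.

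Rarb and Cyp26a1 are textbook response genes, known for direct repeats in their promoters that the receptors bind, and the matching letters are shown for that reason. RefSeq promoter windows of GRCm38.p6, from 250 bases before to 50 after a transcript start, were searched on both strands for the motif AGGTCA or its variants, which were AGTTCA and also GGGTCA and also GGTTCA, followed by any of these on the same strand, with 5 bases (DR5) or 2 bases (DR2) between. Windows were held for 7 of the 9 genes, all but Crabp2 and Rdh10. A DR5 match was found for Rarb and Cyp26a1, and a DR2 match for 0 of the 7. Over all 32851 windows, 0.0974% held a DR5 match and 0.268% a DR2 match. Counted by gene, the shares were 0.115% and 0.311% of 27025 genes. In the 5 hand-made lists described below, 0 of the genes with a window held either match. The printed Rarb stretch is chr14:16575507-16575535, on the gene's minus strand, and the repeat within it runs from 53 to 37 bases before that start. The printed Cyp26a1 stretch is chr19:37697770-37697798, on the plus strand, and the repeat within it lies 32 to 16 bases before its start and reads on the opposite strand. Capitals mark the motifs of each repeat, and the stretches include 6 flanking bases on each side:
Rarb: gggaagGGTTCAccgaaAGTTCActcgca
Cyp26a1: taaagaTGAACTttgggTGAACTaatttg
A match describes letters, not binding in these embryos. The genes that carry it had differences of -0.08 and -0.06, with the intervals given above that span 0.

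Other genes of the pathway were taken from hand-made lists. The lists were chosen with earlier results of these data known, so counts set against all genes are descriptions, not tests. None of their 68 measured genes passed the adjusted threshold by limma, with or without double knockout replicate 1. At an unadjusted p under 0.05 there were 12 with all arrays, against 4.96% of all genes, and 13 without that array, against 6.67%. Over all genes tested 53.8% were lower with all arrays and 53.3% without it, and the median was -0.01 in both. Of the retinol supply genes, which carry, take up, store or oxidise retinol, 14 of 16 were measured, 10 were higher and 4 lower, with a median of 0.09. Leaving out double knockout replicate 1 gave 8 higher and 6 lower, with a median of 0.01. Lrat, which stores retinol as esters, differed by 0.24 (SE 0.09, limma adjusted p = 0.872) and the alcohol dehydrogenase Adh1 by -0.34 (SE 0.12, limma adjusted p = 0.872). Lrat was dim, at 3.22 to 3.66 on all arrays. Rbp4, the retinol carrier of plasma and yolk sac, read 9.76, 9.87 and 10.26 in the single knockout and 12.10, 9.54 and 9.68 in the double knockout. Replicate 1 was thus far above the other arrays, as visceral endoderm markers were, while replicates 2 and 3 lay below the single knockout, at a difference of -0.35 without replicate 1 (limma adjusted p = 0.763).

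Of the other synthesis and breakdown genes, 6 of 7 were measured and all 6 were lower, with a median of -0.34, or -0.19 without double knockout replicate 1, where again all 6 were lower. Aldh1a1, a retinaldehyde dehydrogenase, differed by -0.21 (SE 0.07) and Aldh1a3, another, by -0.20 (SE 0.08), both at a limma adjusted p of 0.872. Aldh1a1 at 3.68 to 3.98 was dim on every array. Cyp26b1, a relative of Cyp26a1 picked here after its values were seen, differed by -0.47 (SE 0.28), or -0.19 without replicate 1.

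Receptor partners had a median near 0. Of 13 measured among 15, 6 were higher and 7 lower, with a median of 0.00. Without double knockout replicate 1, 4 were higher and 9 lower, with a median of -0.03. Ncoa1, a coactivator of nuclear receptors, differed by -0.20 (SE 0.06) and Ppard, a nuclear receptor that also takes up retinoic acid, by -0.17 (SE 0.09), both at a limma adjusted p of 0.872. The retinoid X receptor genes Rxra, Rxrb and Rxrg, chosen with their values in view, had differences of 0.04, 0.01 and 0.27, or -0.01, 0.05 and 0.05 without replicate 1.

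Genes commonly described as raised by retinoic acid were lower for 17 of the 23 measured among 27, with a median of -0.20. Without double knockout replicate 1, 15 were lower with a median of -0.06, against -0.01 for all genes. At an unadjusted p under 0.05 there were 5 with all arrays, each of them lower, against 3.0% of all genes on that side. Without that array there were 7, of which 6 were lower and 1, Pax6, was higher, against 6.67% of all genes. Because the list was chosen with earlier results known, these counts do not test it. Hoxa3 and Hoxb4, Hox genes of hindbrain and neck, read 7.62 to 7.69 and 7.80 to 7.84 in the single knockout and 7.30 to 7.47 and 7.53 to 7.65 in the double knockout, with no overlap. Their differences were -0.27 (SE 0.07) and -0.22 (SE 0.06), both at a limma adjusted p of 0.872, and -0.22 and -0.19 without replicate 1. The other Hox genes measured in the list, Hoxb1 and Hoxb5, were not lower. They differed by 0.26 and 0.01, or 0.09 and 0.02 without replicate 1. Olig2, a gene of motor neuron progenitors, read 5.25, 6.02 and 5.59 in the single knockout and 3.51, 4.86 and 4.57 in the double knockout. Its difference was -1.31 (SE 0.37, limma adjusted p = 0.872), or -0.91 without replicate 1 (limma adjusted p = 0.701). The Olig2 value in replicate 1 was dim, where the lowest value on any array is 2.64. Ripply2, a gene of forming somites, differed by -0.49 with all arrays and -0.83 without replicate 1 (limma adjusted p = 0.701). The zinc finger genes Tshz1 and Tshz3, chosen with their values in view, had differences of -0.21 and -0.30 and no overlap between the groups. The somite list and the hindbrain and neural crest list were lower in replicate 1, as given above, and their part in these values was not tested.

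Caudal genes, of the tail bud territory where Cyp26a1 is expressed, were split. Of 12 measured among 13, 7 were higher and 5 lower with all arrays (median 0.07), and 2 were higher and 10 lower without double knockout replicate 1 (median -0.09). Their mean differences in double knockout replicates 1 to 3 were 0.66, -0.13 and 0.06. Wnt8a, a ligand gene of the primitive streak, read 5.11, 4.41 and 4.77 in the single knockout and 8.47, 5.44 and 5.83 in the double knockout, with no overlap. Its difference was 1.82 (SE 0.77, limma adjusted p = 0.872), or 0.87 without replicate 1 (limma adjusted p = 0.701). Fgf17 differed by -0.34 (SE 0.13) and Msgn1, a regulator of presomitic mesoderm, by -0.02, or -0.22 without replicate 1. Markers of the epiblast, which precedes this territory, averaged 1.44, 0.34 and 0.49 above the single knockout mean in replicates 1 to 3. By group difference all 8 of them were higher with and without replicate 1. Replicate 1 was the highest array for 6 of the 8, Pou5f1 among them at 10.77. It was the lowest for 1, Tdgf1, at 5.87 against 6.52 to 6.85 in the single knockout. The part of the epiblast markers in the caudal values was not tested.

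**Figure D4:**
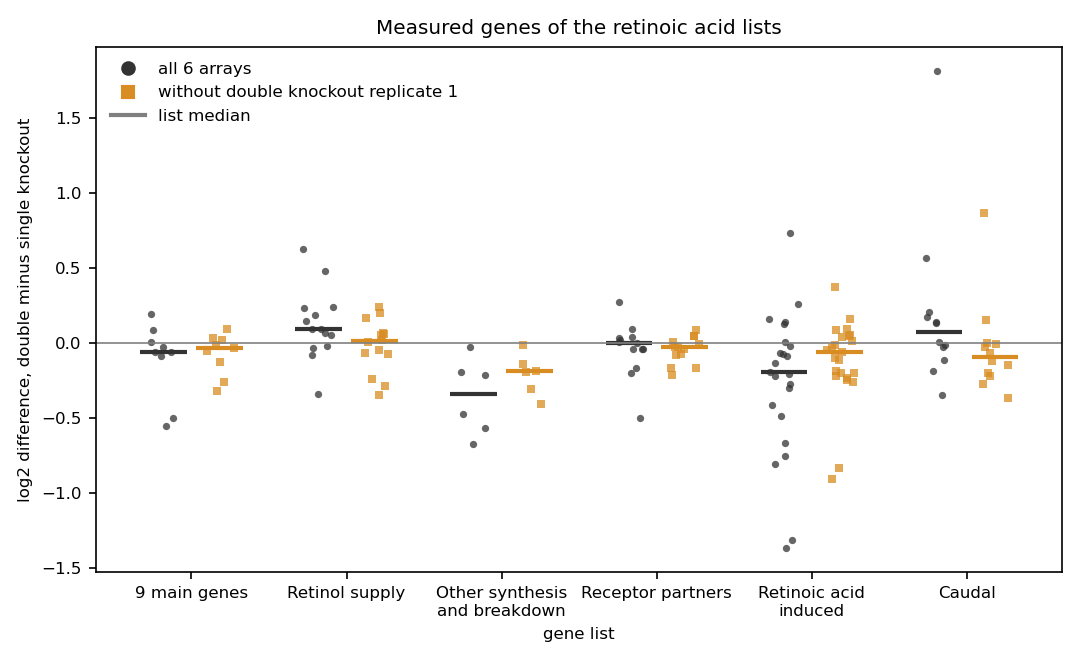
Log2 difference between double and single knockout (vertical axis) for each measured gene of the 9 main genes and of the 5 hand-made lists (horizontal axis), over all 6 arrays (circles) and without double knockout replicate 1 (squares), with lines at list medians. The median of the retinoic acid induced list is -0.20 with all arrays and -0.06 without the array, and that of the caudal list is 0.07 and -0.09.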

How the data were processed

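The deposited data were log2 values of 45101 probe sets on 6 single-colour Affymetrix arrays. The submitters' processing notes name RMA (robust multi-array average), which corrects background, brings arrays to a common distribution and summarises probes, and which compresses differences near background. Array medians lay between 5.794 and 5.816. No version or probe definition is given in the sources used here. The number of arrays limits the precision. Probe sets were named by the platform annotation. Leaving out controls and those without exactly 1 symbol kept 34945 probe sets for 18193 genes. Of the 9 genes, 7 had 1 probe set and 2 had several, and all 9 identifiers matched RefSeq (GRCm38.p6). Groups and replicate numbers came from sample titles.

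Groups were compared with lmFit and eBayes in limma 3.58.1 (R 4.3.3), two-sided, with Benjamini-Hochberg adjustment over all genes. The fit was tested on simulated data. Each array was left out in turn. The other alternatives were array weights, the mean of probe sets, dim genes left out, a replicate block, robust moderation with an intensity trend, median centring, a second quantile normalization and an adjusted p of 0.1. From each list the text names genes past the threshold and the 2 with the smallest unadjusted p, with all arrays and without double knockout replicate 1, and others where stated. The genes and lists were chosen with earlier results of these data known, so no list test is given. Lists are described by counts and medians, with those of all genes given where the lists are introduced.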

Additional observations from a re-analysis of the deposited data

How the results depend on the processing

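None of the 9 retinoic acid genes passed the threshold under any of the 13 alternative fits, where the smallest adjusted p was 0.699. Crabp1, Crabp2 and Rdh10 kept the sign of their difference in all of them, with ranges of -0.69 to -0.13, -0.69 to -0.32 and 0.03 to 0.15 when 1 array was left out. The other 6 genes changed sign in 14 values, none above 0.094 in size. Leaving out 1 array gave -0.054 to 0.33 for Aldh1a2, -0.11 to 0.011 for Cyp26a1, -0.030 to 0.038 for Rara, -0.24 to 0.094 for Rarb, -0.083 to 0.041 for Rarg and -0.26 to 0.051 for Dhrs3. Rarb was 0.0014 with array weights. Rarg was 0.029 with the mean of its probe sets, 0.0048 after a second quantile normalization and 0.0052 after median centring. The cause was not tested. With the mean of probe sets, 0 genes passed in place of 1. When 1 array was left out, 0 to 1 genes passed. The call of Fzd2 was lost without double knockout replicate 3 or any single knockout array. It was kept without double knockout replicate 1 or 2, and the reason was not tested. With 1 array left out, the number of the 9 genes whose groups did not overlap was 1 to 2. Rara lies below the median brightness and has no value with dim genes left out.

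Same-numbered arrays did not deviate together over all genes (correlations of 0.09, -0.04 and -0.13). Single knockout replicate 2 correlated best with double knockout replicate 3 (0.28). The deviations were taken from group means that include double knockout replicate 1, so a shared litter or batch is not excluded. With the replicate number as a block, 1 gene passed and the Crabp2 difference was -0.55 (SE 0.12, limma adjusted p = 0.855). Dim genes near background have understated differences.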

Other observations

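Several genes of the retinoic acid induced list had their widest gap in double knockout replicate 1, and they are named here after their values were seen. Nr2f1, an orphan nuclear receptor of neural tissue, read 7.42 in it against 10.70 to 11.16 on the other arrays, a gap of -3.54 from their mean. The gap was -2.64 for Pax6, a gene of eye, forebrain and spinal cord, -1.94 for Nr2f2, -1.92 for the receptor gene Ret and 2.00 for Cdx1, a posterior regulator. Without that array the groups differed by -0.23 for Nr2f1, 0.16 for Pax6, -0.20 for Nr2f2, -0.04 for Ret and 0.08 for Cdx1, and none of these passed the adjusted threshold. For Ttr, which carries thyroid hormone and binds the retinol carrier protein, the gap was 2.05.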
